A study of Homo sapiens with 9 samples.

Results

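The mRNA of 10 integrin subunits was followed by RNA-Seq in MDA-MB-231, a cell line established from triple-negative breast cancer (TNBC). The members were taken by gene symbol: 5 α subunits (ITGA2, ITGA3, ITGA5, ITGA6 and ITGAV) and 5 β subunits (ITGB1, ITGB3, ITGB4, ITGB5 and ITGB8), out of 26 integrin subunit genes and 58735 genes in the count tables. Vehicle cells were treated with DMSO, erastin-R cells had survived increasing concentrations of erastin, an inhibitor of the cystine/glutamate antiporter system xc-, and RSL3-R cells had survived increasing concentrations of RSL3, an inhibitor of the lipid peroxidase GPX4. Each condition had 3 libraries. The doses and schedule were not used here. The survivors were populations rather than single clones, and the sources do not say whether the 3 libraries of a condition came from separate cultures, so the p-values measure only the spread between these libraries, which may be technical.

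Integrins are pairs of an α and a β chain in the plasma membrane. They bind matrix proteins such as laminin, collagen and fibronectin outside the cell and couple them to the actin or keratin cytoskeleton inside it. The β1 chain pairs with many α chains, α6 also pairs with β4 in hemidesmosomes, and αv pairs with β1, β3, β5 or β8 to bind RGD-containing ligands. The α6β4 pair is known to modify ferroptosis, the iron-dependent form of cell death driven by lipid peroxidation, in cells that have lost contact with the matrix.

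The 9 libraries held 15405102 to 17273464 counts, and all 10 subunits passed the filter on low counts. Expression is given as CPM (the count scaled to library size with TMM factors) for comparisons between conditions, and as the deposited FPKM (per kilobase of exon) for comparisons between genes. Differences were tested with edgeR's quasi-likelihood test, adjusted over 16188 genes. "Higher" and "lower" mean an adjusted p under 0.05, and "differentially expressed" means that the log2 fold change was also at least 1 in size. Markers of MDA-MB-231 cells (VIM, CD44, AXL and CAV1) summed to 2962 to 3301 CPM in every library, and luminal breast markers to at most 2.80 CPM. Within the MDA-MB-231 sum the genes moved in opposite directions. CAV1 was lower in erastin-R and RSL3-R cells (log2 fold changes -1.14 and -0.86, adjusted p = 1.54e-09 and 1.45e-08). CD44 was also lower in both (-0.15 and -0.43, adjusted p = 0.0343 and 3.42e-05). AXL was higher in both (0.58 and 0.40, adjusted p = 2.01e-06 and 7.32e-05), and VIM passed in neither. The endothelial list (PECAM1, CDH5 and VWF) summed to 9.68 to 11.1 CPM in vehicle, 1.65 to 2.38 in erastin-R and 11.7 to 14.2 in RSL3-R cells, nearly all of it PECAM1. Among leukocyte markers, CD14 was lower in erastin-R cells, at 1.61 ± 0.294 CPM against 3.78 ± 0.308 in vehicle (log2 fold change -1.23, adjusted p = 0.000316), and PTPRC was higher in RSL3-R cells, at 1.37 ± 0.136 against 0.424 ± 0.210 CPM (1.67, adjusted p = 0.00818). The endothelial list, like most integrin subunits, was lowest in erastin-R cells, CDH5 and VWF were near 0 throughout, and the part of these markers in the results was not tested. In such bulk RNA, fewer cells of a type and less RNA per cell cannot be told apart. Erastin-R replicate 1 stood apart from the other libraries. Its members deviated from the erastin-R mean by a median of 0.18 on the log2 scale against 0.01 to 0.10 in the other 8 libraries, and values that it moved by more than 1.5 times or across the threshold are given with and without it.

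The subunits lie on 7 chromosomes of GRCh38. The bases before the RefSeq transcription start are shown for ITGA2, ITGB1 and ITGA6, which were picked by level or size of change. ITGA2 had the widest difference between the 2 surviving populations, ITGB1 was the most abundant member, and ITGA6 changed least in RSL3-R cells. A link between sequence and change was not tested. The sequences are RefSeq's, on GRCh38.p14, written 5′ to 3′ on the gene's strand and ending before any exon of GENCODE 29, and capitals mark GC boxes (GGGCGG on either strand), the motif bound by Sp1. They cover chr5:52989102-52989325 (plus strand), chr10:32958233-32958480 (minus strand) and chr2:172427086-172427335 (plus strand).
ITGA2: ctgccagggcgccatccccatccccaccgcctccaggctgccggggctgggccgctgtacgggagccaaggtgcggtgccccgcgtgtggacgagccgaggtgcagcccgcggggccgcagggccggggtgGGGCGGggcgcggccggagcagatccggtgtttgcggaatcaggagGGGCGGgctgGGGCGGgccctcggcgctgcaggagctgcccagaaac
ITGB1: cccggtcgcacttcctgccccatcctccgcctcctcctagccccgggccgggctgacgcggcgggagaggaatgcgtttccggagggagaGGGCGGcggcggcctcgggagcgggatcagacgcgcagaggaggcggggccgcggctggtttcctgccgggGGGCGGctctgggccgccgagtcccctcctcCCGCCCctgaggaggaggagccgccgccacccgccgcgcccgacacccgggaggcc
ITGA6: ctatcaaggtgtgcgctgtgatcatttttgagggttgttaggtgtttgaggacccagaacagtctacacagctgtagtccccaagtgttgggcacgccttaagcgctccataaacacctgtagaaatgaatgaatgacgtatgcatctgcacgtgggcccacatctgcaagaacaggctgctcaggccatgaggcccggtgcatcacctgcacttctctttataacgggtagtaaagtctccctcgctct

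The ITGA2 and ITGB1 stretches hold 3 GC boxes each and the ITGA6 stretch holds none. The 250 bases before the start were 76.4% G and C for ITGA2, 78.4% for ITGB1 and 50.8% for ITGA6, against a median of 58.0% over 35116 promoters. Promoter entries were matched for 7 of the 10 members. ITGA6, ITGAV and ITGB1 had 2 entries each and ITGB5 had 3, and only the first listed was searched or shown. A GC box stood in 5 of the 7 (ITGA2, ITGA5, ITGB1, ITGB5 and ITGB8), against 42.6% of all promoters. ITGAV had none, like ITGA6, but was higher in RSL3-R cells (log2 fold change 0.47), where ITGB1 did not pass (0.20). The AP-1 motif (TGANTCA, both strands) stood in 0 of the 7, against 6.57% of all promoters, and the CRE (TGACGTCA) also in 0, against 1.65%. The other motifs searched on both strands were TEAD (GGAATG) in 2 of the 7 against 11.9% of all promoters, the CCAAT box (CCAAT) in 1 against 32.0%, the E-box (CACGTG) in 1 against 6.34%, NF-κB (GGG and CC with any 5 bases between) in 4 against 54.4% and the SRF CArG box (CC and GG with any 6 bases between) in 6 against 73.7%. The last 2 patterns are loose and can overlap GC boxes. A match is a description of these letters and not a binding site.

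The levels of the subunits spanned more than 3 orders of magnitude. By deposited FPKM, vehicle cells contained ITGB1 at 451.9 ± 20.5 (SD, n = 3), ITGA3 at 109.4 ± 2.53, ITGA2 at 44.5 ± 2.70, ITGA6 at 43.9 ± 3.17, ITGB5 at 39.3 ± 0.695, ITGA5 at 27.9 ± 0.0247, ITGAV at 24.7 ± 0.323, ITGB4 at 15.8 ± 0.432, ITGB3 at 1.45 ± 0.0221 and ITGB8 at 0.245 ± 0.0608. Only ITGA2 and ITGA6 overlapped between their libraries among neighbours in this order. ITGB1 provided 88.8% ± 0.603 of the summed β FPKM in vehicle, 87.6% ± 2.98 in erastin-R and 87.1% ± 0.224 of it in RSL3-R libraries. The order was the same in RSL3-R cells, where ITGA6 and ITGB5 overlapped, and in erastin-R cells ITGA2 moved from the third place to the fifth, behind ITGA6 and ITGB5, with overlap between those neighbours and between ITGA5 and ITGAV.

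**Figure D1:**
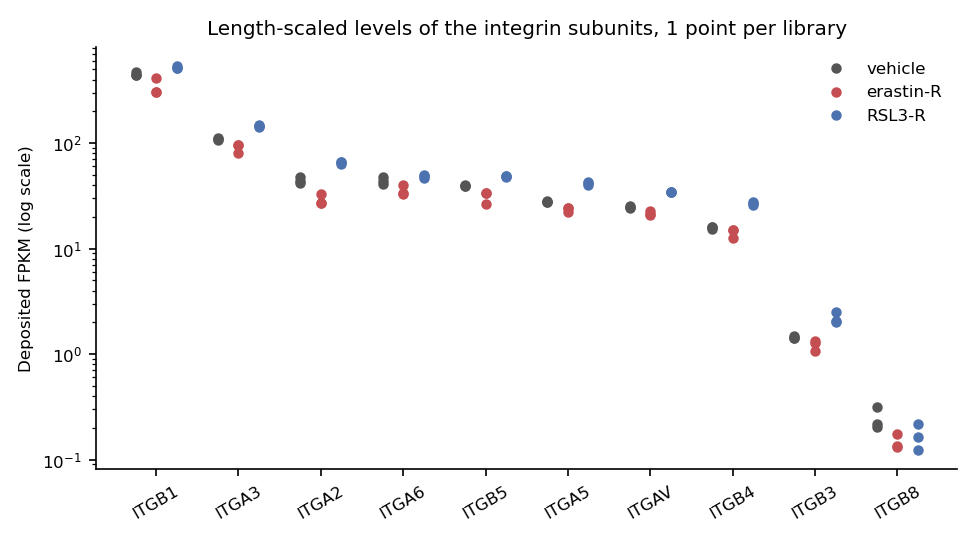
Deposited FPKM on a log axis for the 10 subunits, ordered by their vehicle mean, with 1 point per library. ITGB1 lay between 302.3 and 535.2 FPKM in the 9 libraries and ITGB8 between 0.123 and 0.314.

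The first question was how subunit mRNA in erastin survivors differed from vehicle. The subunits were lower in erastin-R cells, by modest amounts. Of the 10 subunits, 8 were lower and 0 were higher. Over all genes tested 26.8% were lower and 27.1% higher. All 10 subunits had their 3 erastin-R libraries below their 3 vehicle libraries, which held for 29.1% of all genes tested. The median log2 fold change was -0.28, against -0.00 over all genes. Leaving out erastin-R replicate 1 also gave 8 lower and 0 higher. Over all genes, 9957 of 16619 were then higher or lower, against 8735 of 16188 with this library. None of the 10 subunits reached a 2-fold change, so 0 of 10 were differentially expressed, against 13.4% of all genes.

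The second question was the same for RSL3 survivors, compared with the same vehicle libraries, which the 2 comparisons therefore share. Here 7 subunits were higher and 0 lower, where 23.8% of all genes were higher and 24.9% lower. The RSL3-R libraries lay above the vehicle libraries for 8 subunits, which held for 30.4% of all genes. The median log2 fold change was 0.44, against 0.01 over all genes, and again 0 of 10 were differentially expressed, against 10.1% of all genes. Without erastin-R replicate 1, whose spread enters the common model, 9 subunits were higher and 1, ITGB8, was lower. Over all genes, leaving it out also raised the number higher or lower, from 7879 of 16188 to 9401 of 16619.

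RSL3-R cells were then compared with erastin-R cells directly, which tests the difference between the 2 changes from vehicle. Of the 10 subunits, 9 were higher in RSL3-R cells and 0 lower, where 22.3% of all genes were higher and 26.9% lower. The libraries did not overlap for the same 9 subunits, as for 25.6% of all genes in this direction. ITGA2 was the 1 subunit differentially expressed, against 10.3% of all genes. Over all genes, 1111 were differentially expressed and higher and 563 lower, and after quantile normalization with limma 903 and 736. The remaining subunit, ITGB8, differed by a log2 fold change of 0.17 ± 0.26 (SE, adjusted p = 0.614).

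**Figure D2:**
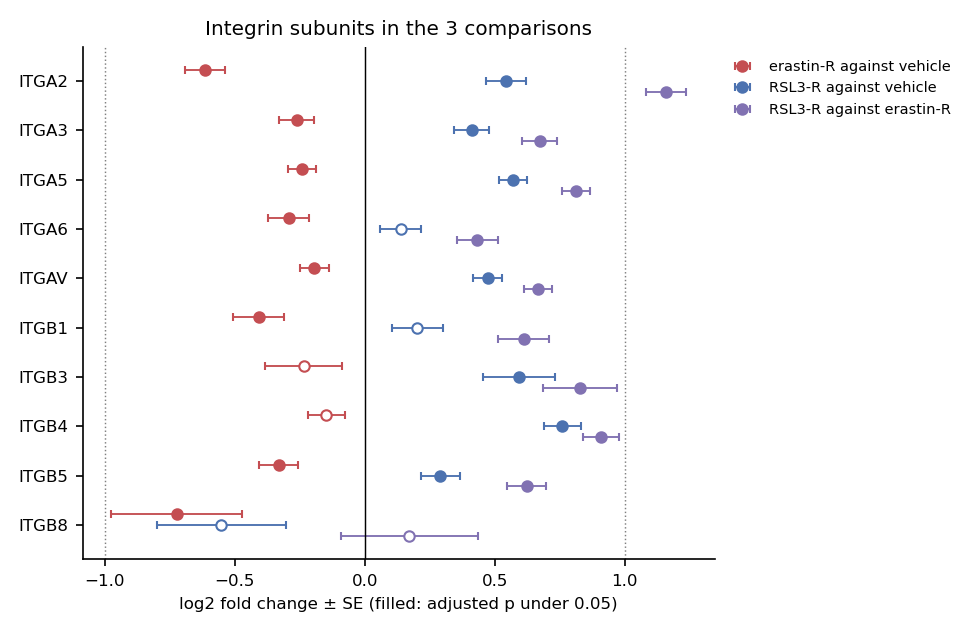
Log2 fold changes with standard errors of the 10 subunits in the 3 comparisons, where filled symbols passed an adjusted p of 0.05 and dotted lines mark a 2-fold change. All erastin-R symbols lie left of 0 and all RSL3-R symbols except that of ITGB8 lie right of it, and ITGA2 in RSL3-R against erastin-R (1.16) is the single point beyond a dotted line.

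ITGA2 is the α2 chain of the collagen receptor α2β1 (ENSG00000164171, chromosome 5, 52989326 to 53094779, plus strand). Vehicle replicates 1 to 3 contained 338.1, 350.7 and 378.9 CPM. Erastin-R replicates contained 264.1, 217.0 and 215.9 CPM, and RSL3-R replicates 529.5, 501.2 and 524.2 CPM. The 3 conditions did not overlap, with erastin-R lowest and RSL3-R highest. ITGA2 was 1.53-fold lower in erastin-R cells (log2 fold change -0.62 ± 0.08 SE, adjusted p = 1.53e-05) and 1.46-fold higher in RSL3-R cells (0.54 ± 0.08, adjusted p = 5.18e-05). Between the survivors it differed 2.23-fold (1.16 ± 0.08, adjusted p = 7.44e-08).

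ITGA3 is the α3 chain of the laminin receptor α3β1 (ENSG00000005884, chromosome 17, 50055968 to 50090481, plus strand). It read 1110.0, 1085.6 and 1056.1 CPM in vehicle, 800.2, 954.6 and 958.2 in erastin-R and 1399.9, 1479.1 and 1444.4 in RSL3-R cells. The conditions did not overlap, and erastin-R replicate 1 was the lowest library. The change was 1.20-fold lower in erastin-R (-0.26 ± 0.07, adjusted p = 0.00497) and 1.33-fold higher in RSL3-R cells (0.41 ± 0.07, adjusted p = 0.000197).

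ITGA5 pairs with β1 as the main fibronectin receptor (ENSG00000161638, chromosome 12, 54395261 to 54419460, minus strand). Its vehicle libraries were nearly equal, at 213.8, 214.2 and 213.2 CPM. Erastin-R libraries held 173.0, 185.0 and 184.6 CPM and RSL3-R libraries 308.8, 320.4 and 323.0. Both survivor populations lay outside the narrow vehicle range on opposite sides. ITGA5 was 1.18-fold lower in erastin-R (-0.24 ± 0.05, adjusted p = 0.00174) and 1.48-fold higher in RSL3-R cells (0.57 ± 0.05, adjusted p = 1.14e-06).

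ITGA6, the α6 chain of the laminin receptors α6β1 and α6β4 (ENSG00000091409, chromosome 2, 172427354 to 172506282, plus strand), was followed because of its known role in ferroptosis of detached cells. Vehicle libraries held 270.8, 288.0 and 311.4 CPM. Erastin-R libraries held 268.7, 222.6 and 219.1, and RSL3-R libraries 319.4, 309.7 and 329.6. Erastin-R replicate 1 came within a few CPM of the lowest vehicle library, and 1 RSL3-R library fell inside the vehicle range. ITGA6 was 1.22-fold lower in erastin-R cells (-0.29 ± 0.08, adjusted p = 0.00642). RSL3-R cells gave 0.14 ± 0.08, which did not pass the test (adjusted p = 0.161), whereas without erastin-R replicate 1 the value was 0.14 with an adjusted p of 0.0103.

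ITGAV is the αv chain shared by several RGD receptors (ENSG00000138448, chromosome 2, 186590065 to 186680901, plus strand). Its levels were 203.2, 204.2 and 207.5 CPM in vehicle, 174.0, 189.1 and 174.8 in erastin-R and 285.2, 283.2 and 284.7 in RSL3-R cells. The RSL3-R libraries were the most alike, with an SD of 1.04 CPM, and the conditions did not overlap. ITGAV was 1.14-fold lower in erastin-R (-0.19 ± 0.05, adjusted p = 0.00826) and 1.39-fold higher in RSL3-R cells (0.47 ± 0.05, adjusted p = 7.68e-06).

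**Figure D3:**
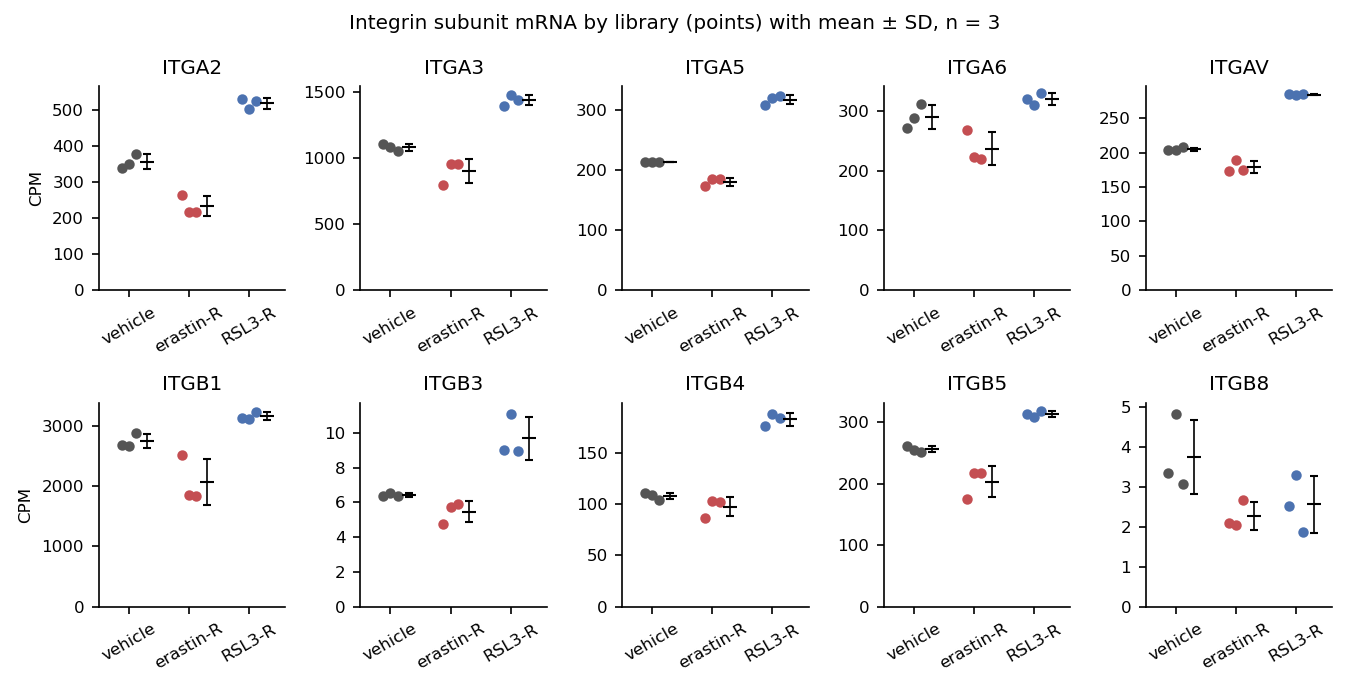
CPM of each subunit in the 9 libraries (points, replicates 1 to 3 from left to right) with the mean and SD of 3 libraries beside them, on axes that start at 0. The leftmost erastin-R point, replicate 1, lies above the other erastin-R points for ITGA2, ITGA6 and ITGB1. It lies below them for ITGA3, ITGA5, ITGB3, ITGB4 and ITGB5, and narrowly for ITGAV.

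Among the β chains, ITGB1 is the common partner of α2, α3, α5 and α6 (ENSG00000150093, chromosome 10, 32900319 to 33005792, minus strand). Vehicle libraries held 2687, 2666 and 2881 CPM. Erastin-R libraries held 2517, 1855 and 1834, and RSL3-R libraries 3136, 3108 and 3233. The conditions did not overlap, but the gap between erastin-R replicate 1 and its 2 companions was wider than that between this library and vehicle. ITGB1 was 1.33-fold lower in erastin-R cells (-0.41 ± 0.10, adjusted p = 0.00270). The RSL3-R value of 0.20 ± 0.10 did not pass (adjusted p = 0.0976). Without erastin-R replicate 1 the values were -0.57 and 0.20, and the latter passed with an adjusted p of 1.00e-05. Of the 50-base words of ITGB1 transcripts, 8.86% also occur in transcripts of other genes. AC022149.1, with at most 2720 counts in a library, shares the most of them. Reads from these stretches may be missing from the ITGB1 count or be placed on the other gene.

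ITGB4 is the long β chain that pairs with α6 and anchors hemidesmosomes (ENSG00000132470, chromosome 17, 75721328 to 75757818, plus strand). It read 110.4, 109.0 and 104.4 CPM in vehicle, 86.7, 103.3 and 102.2 in erastin-R and 176.1, 188.3 and 183.9 in RSL3-R cells. Erastin-R replicates 2 and 3 lay directly under the vehicle range, while the RSL3-R libraries were far above it. The 1.69-fold increase in RSL3-R cells (0.76 ± 0.07, adjusted p = 9.88e-07) was the largest of the 10 subunits against vehicle. In erastin-R cells the log2 fold change was -0.15 ± 0.07 and did not pass (adjusted p = 0.0922), and without erastin-R replicate 1 it was -0.07 (adjusted p = 0.237).

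ITGB5 forms the vitronectin receptor αvβ5 (ENSG00000082781, chromosome 3, 124761948 to 124901418, minus strand). Its libraries held 261.7, 255.1 and 252.0 CPM in vehicle, 175.3, 218.1 and 217.7 in erastin-R and 313.6, 308.9 and 318.2 in RSL3-R cells. The conditions did not overlap. ITGB5 was 1.26-fold lower in erastin-R (-0.33 ± 0.08, adjusted p = 0.00199) and 1.22-fold higher in RSL3-R cells (0.29 ± 0.07, adjusted p = 0.00531).

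ITGB3, the β chain of αvβ3 (ENSG00000259207, chromosome 17, 47253846 to 47311816, plus strand), was scarce. It read 6.38, 6.55 and 6.35 CPM in vehicle, 4.76, 5.73 and 5.90 in erastin-R and 9.03, 11.1 and 8.94 in RSL3-R cells, from 80 to 179 counts. The RSL3-R libraries stood above the others. ITGB3 was 1.51-fold higher in RSL3-R cells (0.59 ± 0.14, adjusted p = 0.00295), and its erastin-R value of -0.24 ± 0.15 did not pass (adjusted p = 0.192), nor did the value of -0.15 without erastin-R replicate 1 (adjusted p = 0.445). Of its exon length, 51.6% is shared with AC068234.1 on the same strand, a gene listed at 0 counts, so reads from that stretch may be missing from its count.

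ITGB8 pairs with αv to bind latent TGF-β (ENSG00000105855, chromosome 7, 20330702 to 20415754, plus strand) and was the rarest member, with 32 to 78 counts. Vehicle libraries held 3.34, 4.82 and 3.08 CPM. Erastin-R libraries held 2.08, 2.04 and 2.67, and RSL3-R libraries 2.51, 3.29 and 1.87. It was the single subunit whose RSL3-R mean lay below vehicle, and these libraries overlapped. The erastin-R value of -0.72 ± 0.25 passed (adjusted p = 0.0256), but not without vehicle replicate 2 (-0.51, adjusted p = 0.143) or without erastin-R replicate 2 (-0.65, adjusted p = 0.0736). The RSL3-R value of -0.55 ± 0.25 did not (adjusted p = 0.0808), and it passed without RSL3-R replicate 2 (-0.78, adjusted p = 0.0368) or without erastin-R replicate 1 (-0.56, adjusted p = 0.0445).

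Sums and ratios of deposited FPKM described the balance between chains. They are given as descriptions and were not tested. The 5 α subunits summed to 250.5 ± 3.71 FPKM in vehicle, 200.7 ± 3.72 in erastin-R and 335.5 ± 4.11 FPKM in RSL3-R libraries. The 5 β subunits summed to 508.7 ± 19.6, 385.9 ± 56.9 and 599.1 ± 12.6 FPKM. Neither sum overlapped between conditions. In erastin-R replicate 1 the opposite deviations of ITGA3 and of ITGA2 and ITGA6 nearly cancelled in the α sum, but that of ITGB1 remained in the β sum, which was 451.5 FPKM in this library and 353.9 and 352.2 in the other erastin-R libraries.

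The partners in α6β4 moved unequally. The ITGB4 to ITGA6 ratio was 0.394, 0.366 and 0.324 in vehicle and 0.533, 0.588 and 0.539 in RSL3-R cells. Erastin-R libraries gave 0.312, 0.448 and 0.451. The RSL3-R ratios exceeded all others, and the erastin-R libraries fell on both sides of the vehicle range. For the collagen receptor pair, the ITGA2 to ITGB1 ratio was 0.0985 ± 0.00250 in vehicle, 0.0860 ± 0.00547 in erastin-R and 0.125 ± 0.00314 in RSL3-R libraries, without overlap. Ratios of ITGA5, ITGAV and ITGA3 to ITGB1 also lay above all vehicle libraries in RSL3-R cells. They averaged 0.0797, 0.0659 and 0.280, against 0.0619, 0.0547 and 0.243 in vehicle, and erastin-R libraries fell on both sides of vehicle. The ITGA6 to ITGB1 ratio of RSL3-R cells overlapped vehicle. Their ITGB5 to ITGAV ratio lay below it, at 1.40 ± 0.0174 against 1.59 ± 0.0467. The ITGB8 to ITGAV ratio was 0.00991 ± 0.00252, 0.00687 ± 0.00127 and 0.00488 ± 0.00137, lowest in RSL3-R cells, whose libraries lay below all vehicle libraries, while those of erastin-R overlapped vehicle.

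**Figure D4:**
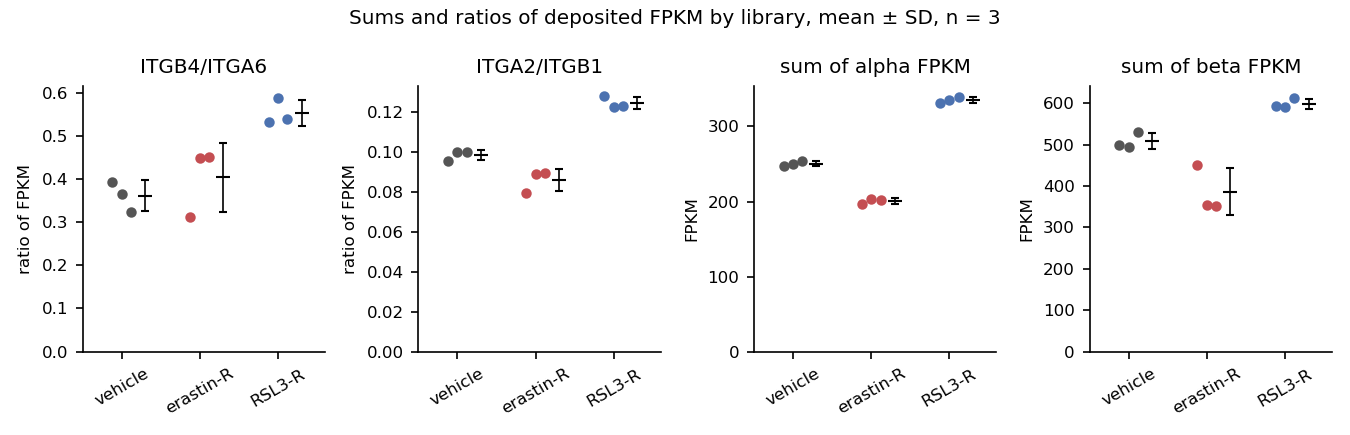
Ratios and sums of deposited FPKM in each library (points) with mean and SD of 3 libraries. The ITGB4 to ITGA6 ratio of RSL3-R cells starts at 0.533, above the highest erastin-R value of 0.451, and the α sums of the conditions lie apart.

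The remaining integrin subunits were mostly silent or scarce, and 6 of these 16 passed the filter. Erastin-R cells had 1 higher and 2 lower, where 27.1% and 26.8% of all genes were, and RSL3-R cells 2 higher and 2 lower, where 23.8% and 24.9% were. ITGA1, another collagen-binding α chain, followed ITGA2, from 93.6 ± 4.63 CPM in vehicle to 67.8 ± 4.35 in erastin-R (-0.47, adjusted p = 5.85e-05) and 144.2 ± 5.65 in RSL3-R cells (0.62, adjusted p = 4.02e-06). ITGA10, a further collagen receptor chain, was lower in both, by log2 fold changes of -0.65 and -0.31 (adjusted p = 2.68e-06 and 0.00171). ITGB2, the leukocyte β2 chain, was higher in RSL3-R cells (0.56, adjusted p = 0.000270), as was the leukocyte marker PTPRC, whose part in this was not tested. ITGAE was lower there (-0.46, adjusted p = 0.00367). ITGA7, a laminin receptor chain at 2.61 CPM in vehicle, was higher in erastin-R cells (0.56, adjusted p = 0.0257). The sixth, ITGA2B, passed no test.

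Matrix and other ligands of these receptors were listed as 20 genes, of which 17 were tested. In erastin-R cells 4 were higher and 6 lower, with a median log2 fold change of -0.01. RSL3-R cells had 11 higher and 2 lower, with a median of 0.39, where 23.8% of all genes were higher and 24.9% lower. In erastin-R cells the shares of all genes were 27.1% and 26.8%.

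FN1, the fibronectin bound by α5β1, fell from 2180 ± 59.2 to 1034 ± 72.6 CPM in erastin-R cells (-1.08, adjusted p = 7.12e-09) and to 1843 ± 23.4 in RSL3-R cells (-0.24, adjusted p = 0.00324). The matricellular ligands CYR61 and CTGF were higher in both survivor populations. CYR61 changed by 1.16 and 1.03 (adjusted p = 5.02e-09 and 1.08e-08) and CTGF by 1.01 and 0.60 (adjusted p = 1.08e-08 and 1.33e-06). Tenascin-C (TNC) rose in RSL3-R cells from 29.8 ± 2.21 to 93.8 ± 5.01 CPM (1.66, adjusted p = 3.56e-09), while its erastin-R value was 0.04 (adjusted p = 0.728).

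Of 28 genes of the intracellular adhesion complex, 27 were tested. Erastin-R cells had 6 higher and 11 lower (27.1% and 26.8% of all genes), and RSL3-R cells 5 higher and 9 lower (23.8% and 24.9% of all genes). The genes moved both ways, with median log2 fold changes of -0.11 and -0.06. FERMT1 (kindlin-1), which activates β chains, stood at 15.5 CPM in vehicle and fell by 1.02 in erastin-R cells on the log2 scale (adjusted p = 6.15e-05). TNS3 (tensin-3), a link between β tails and actin, also fell by 1.02 there (adjusted p = 2.13e-08). In RSL3-R cells FERMT1 was lower as well (-0.65, adjusted p = 0.00207), as was TNS3 (-0.26, adjusted p = 0.00351). ITGB1BP1, an inhibitor of β1 activation, was lower in both, at -0.87 and -1.29 (adjusted p = 5.35e-06 and 1.74e-07), but 33.1% of its exon length is overlapped on the opposite strand by ASAP2, and the sources do not say whether counting used strand. TNS1, at 0.856 CPM in vehicle, also passed the 2-fold threshold in erastin-R cells.

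Hemidesmosome and tetraspanin partners, which anchor α6β4 or cluster integrins, comprised 7 genes. Erastin-R cells had 1 higher and 3 lower, and RSL3-R cells 2 higher and 3 lower, against 27.1% and 26.8%, and 23.8% and 24.9%, of all genes. COL17A1, the hemidesmosomal collagen that binds α6β4, was low throughout and fell in both populations, from 4.43 ± 0.358 CPM to 0.914 ± 0.323 (-2.26, adjusted p = 1.22e-05) and 1.75 ± 0.510 (-1.33, adjusted p = 0.000596). Its decrease in RSL3-R cells ran against the increase of ITGB4. Of the 9 genes of integrin endocytosis and recycling, 8 were tested, with 3 higher and 0 lower in erastin-R cells and 2 higher and 2 lower in RSL3-R cells, to be read beside the same shares of all genes. None of the 8 was differentially expressed, against 13.4% and 10.1% of all genes.

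**Figure D5:**
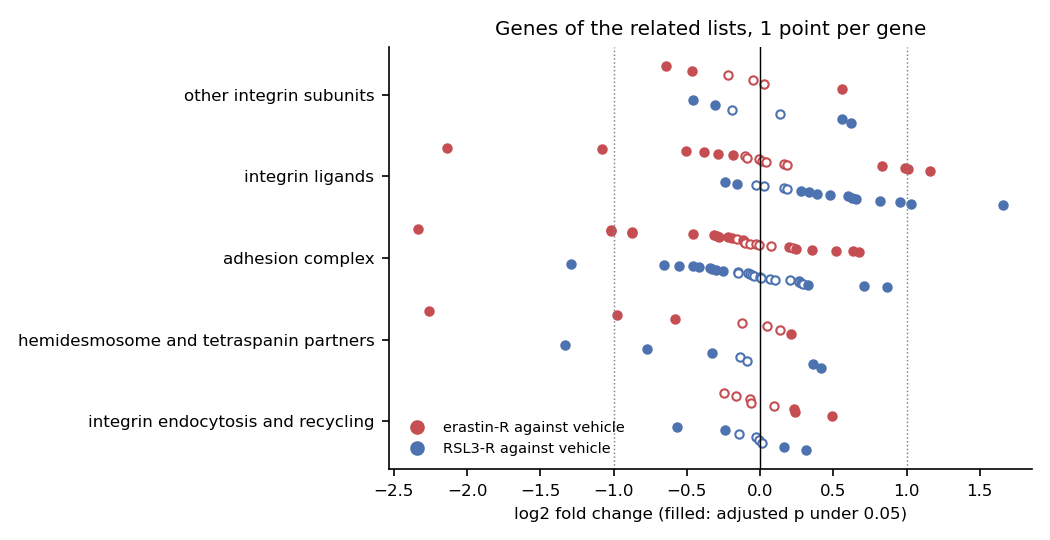
Log2 fold changes against vehicle of the tested genes in 5 related lists, 1 point per gene, filled where the adjusted p was under 0.05. The rightmost ligand in RSL3-R cells is TNC (1.66), and genes of the adhesion complex lie on both sides of 0.

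Genes tied to α6β4 in its link to ferroptosis were read last. SRC, the kinase engaged by the receptor and also a gene of the adhesion complex list, was higher in erastin-R cells (0.64, adjusted p = 0.000215), from 41.7 ± 4.46 to 64.9 ± 10.3 CPM, and gave 0.26 in RSL3-R cells (adjusted p = 0.0595). STAT3 was lower in RSL3-R cells (-0.17, adjusted p = 0.0138) and gave 0.02 in erastin-R cells (adjusted p = 0.747). ACSL4, which loads polyunsaturated fatty acids into phospholipids and is required for ferroptosis in many cells, rose in RSL3-R cells (0.31, adjusted p = 0.00244) from 162.7 ± 12.7 to 202.1 ± 9.02 CPM. Its erastin-R value was 0.15 (adjusted p = 0.101). NECTIN4 had at most 2 counts in a library and was not tested.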

How the data were processed

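RNA of 9 libraries (3 vehicle, 3 erastin-R and 3 RSL3-R) was poly(A)-selected, made into Illumina libraries with a kit for which the sources state no strand setting, and sequenced by the authors. Per the labels, HISAT2 2.0.5 and featureCounts 1.5.0-p3 were used. The authors deposited raw counts per gene from uniquely mapped exonic reads, and FPKM made from these counts. All 58735 identifiers, coordinates and exon lengths equalled GENCODE 29 (GRCh38).

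The differential test was edgeR 4.0.16 in R 4.3.3 (TMM, filterByExpr with a minimum of 10 counts, quasi-likelihood test, 1 model of all libraries without covariates) and adjusted over 16188 genes by the Benjamini-Hochberg method. The coefficient of variation was 8.56% and 3 counts equalled 0.175 to 0.193 CPM. Log2 CPM correlated between libraries with r of 0.986 to 0.992 within and 0.959 to 0.972 between conditions. Conditions and replicate numbers came from the labels. Scripts were tested on simulated counts. Alternatives were DESeq2 1.42.0, RLE scaling, quantile normalization with limma 3.58.1, no filter, only 2 conditions, a replicate block, leaving out each library and an unadjusted p.

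The members, gene lists and tests were chosen with earlier results of these data known. Beside the members, genes of a list are named where they were differentially expressed against vehicle at a mean of at least 1 CPM, at most 4 per list and comparison, with the α6β4 genes and exceptions as stated. Single results of a few genes are not reported here, and these genes remain in the counts of their lists. Exon overlaps and shared 50-base words were computed from GENCODE 29, and promoters came from RefSeq (GRCh38.p14). Plots were made in matplotlib 3.10.9 (Python 3.11.15).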

Additional observations from a re-analysis of the deposited data

Results flagged for a closer look

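The change from vehicle differed between RSL3-R and erastin-R cells for 9 of the 10 subunits, as tested by the direct comparison of the 2 conditions with edgeR. Over all genes tested, 22.3% were higher and 26.9% lower in this comparison. The log2 difference, RSL3-R minus erastin-R, was 1.16 for ITGA2 (adjusted p = 7.44e-08), 0.67 for ITGA3 (3.29e-06), 0.81 for ITGA5 (6.56e-08), 0.43 for ITGA6 (0.000484) and 0.67 for ITGAV (4.97e-07). Among the β chains it was 0.61 for ITGB1 (0.000151), 0.83 for ITGB3 (0.000282), 0.91 for ITGB4 (3.18e-07) and 0.62 for ITGB5 (1.58e-05). For each of these 9 subunits all 3 RSL3-R libraries lay above all 3 erastin-R libraries, which held for 25.6% of all genes tested. Conditions of 3 libraries were too small for a formal test of single outlying values. Each library was left out in turn, as described below.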

How the results depend on the processing

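Over the log2 fold changes of the 10 subunits in 3 comparisons, 450 values were recomputed under alternatives: 437 stayed on their side of the threshold, 2 no longer passed and 11 newly passed. In 2 of them the sign changed, both for ITGB8 in RSL3-R against erastin-R, which passed the test in neither (-0.06, adjusted p = 0.868, after quantile normalization with limma and -0.05, adjusted p = 0.899, without RSL3-R replicate 2, where the reported value was 0.17). Without erastin-R replicate 1 the same value was 0.11. The 2 losses were ITGB8 in erastin-R cells without vehicle replicate 2 or erastin-R replicate 2. The number of subunits lower in RSL3-R cells was 0 as reported and 1, ITGB8, after quantile normalization with limma, with only the 2 conditions in the model, and in a range of 0 to 1 when each library was left out (1 without erastin-R replicate 1 or without RSL3-R replicate 2). ITGB1 in RSL3-R cells passed after quantile normalization (0.36), without the filter on low counts (0.19) and with only the 2 conditions (0.21), and ITGA6 passed with only the 2 conditions (0.15). ITGB4 in erastin-R cells passed after quantile normalization (-0.18, adjusted p = 0.0495). The causes were not tested. With the replicate block 8 subunits were lower in erastin-R cells, 7 higher in RSL3-R cells and 9 higher in RSL3-R than in erastin-R cells, as without it. The deviations of same-numbered libraries correlated with a mean r of -0.0049 across genes over 9 pairs (lowest -0.090, highest 0.052), and the highest correlation (0.123) was between libraries with different numbers, so the numbers were not taken as pairs. At 32 to 78 counts per library, depth limits ITGB8 most.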

Other observations

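ITGA1 and ITGA2 lie next to each other on chromosome 5, with 30115 bases between them, and both fell in erastin-R cells and rose with RSL3 survival. This pair was noticed after the values were seen, and 5 tested genes, the pair included, lie in the window that reaches 200000 bases to either side. PELO, which lies inside ITGA1 on the same strand and encodes a ribosome rescue factor, was higher in erastin-R cells (0.55, adjusted p = 1.84e-05 by edgeR), from 55.0 ± 1.31 to 80.7 ± 6.42 CPM, and gave 0.12 in RSL3-R cells (adjusted p = 0.180). MOCS2, a molybdenum cofactor synthesis gene downstream of ITGA2, gave -0.15 (adjusted p = 0.108) and -0.06 (adjusted p = 0.508). The transcript AC008966.1, which overlaps MOCS2 on the other strand, was lower in erastin-R cells (-1.19, adjusted p = 4.49e-05), from 8.36 ± 0.144 to 3.64 ± 0.523 CPM, and gave -0.01 in RSL3-R cells (adjusted p = 0.966). Reads of PELO and ITGA1 can be mixed where their exons overlap, and 5.63% of the exon length of ITGA1 is covered on its own strand by PELO or other transcripts.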
